A study of Homo sapiens with 96 samples.

Results

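A549 cells given a water extract of Paeoniae Radix (peony root) at 500 µg/mL were compared with the same cells given that extract at 20 µg/mL. The comparison holds 6 of the 96 RNA sequencing libraries of the study, 3 at each dose, taken by the extract and the dose in the labels, and it uses no vehicle library. A549 is an established line from a human lung adenocarcinoma. It carries an inactive KEAP1, so the antioxidant factor NRF2 is active in it without treatment. The libraries belong to the first of 2 batches, whose 21 libraries form 7 groups of 3: water extract or ethanol extract at 20, 100 or 500 µg/mL, and vehicle. All were untransfected A549 per the labels, which give no exposure time and no name for the vehicle. Replicates are numbered 1 to 3, but separate cultures are not stated for them. Every p-value below therefore rests on the spread between libraries that may be technical repeats. The series title refers to Aurora B, and a dose comparison within one extract asks what changes as the amount of that extract is raised.

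Several gene systems recur below. ID proteins are helix-loop-helix proteins without a DNA-binding region. They pair with other helix-loop-helix factors, keep them off DNA, and are transcribed in response to bone morphogenetic proteins (BMP) through SMAD factors. HMOX1 encodes the inducible heme oxygenase, which breaks heme down to biliverdin, carbon monoxide and iron, and is switched on by NRF2 once the repressor BACH1 leaves its enhancers. CYP1B1 and TIPARP are induced by the aryl hydrocarbon receptor, a sensor of planar aromatic compounds including many from plants.

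At 500 µg/mL 346 of 16854 tested genes differed from 20 µg/mL, which is 2.05% of the genes tested. The test was edgeR's quasi-likelihood F-test, with p-values adjusted by Benjamini-Hochberg over all tested genes and a threshold of 0.05. Of these genes 168 were higher (0.997% of those tested) and 178 lower (1.06%). Most differences were small: the median size was 0.25 on the log2 scale, 33 genes changed by at least 1.5-fold and 13 by at least 2-fold. In each of the 346 genes the 3 libraries of one dose lay beyond the 3 of the other, which also held for 3397 of all tested genes (20.2%). Among the genes with a mean above 5 CPM (counts per 1e6 counts) at either dose, HMOX1 rose most, and ID4, ATOH8 and ID2 fell most.

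The 6 libraries held 19.4 to 23.2 × 1e6 counts each (median 21.5 × 1e6). Counts from the mitochondrial genome made up 14.5 to 16.8% of the libraries at 500 µg/mL and 14.2 to 16.9% at 20 µg/mL. In a principal component analysis of the 6 libraries the first component (33.5% of the variance) separated the doses and the second (29.4%) set replicate 3 of both doses apart from the others. Without replicate 3 of every group 128 genes passed, 122 of them among the 346. Leaving out 1 library at a time gave 178, 183 and 202 genes without replicate 1, 2 or 3 at 20 µg/mL, and 184, 158 and 255 without replicate 1, 2 or 3 at 500 µg/mL. Of the A549 markers, KRT8, KRT18 and AKR1B10 were abundant and EPCAM was low, at 3.41 ± 0.285 CPM (SD, n = 3) at 20 µg/mL. CDKN2A, which the line has lost, had no count. Of the 17 markers listed for the line 13 were tested, of which 2 rose (CDH1 and FGB) and 1 fell (CPS1). With 1 library left out the call was lost in 2 of 6 fits for CDH1 and 1 for CPS1. Of 15 markers of fibroblasts, endothelium and blood, 4 had enough counts to be tested, 4 had no count in the 6 libraries, and none passed. Their summed level was 14.7 to 19.7 CPM at 20 µg/mL and 15.5 to 16.9 at 500 µg/mL.

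**Figure D1:**
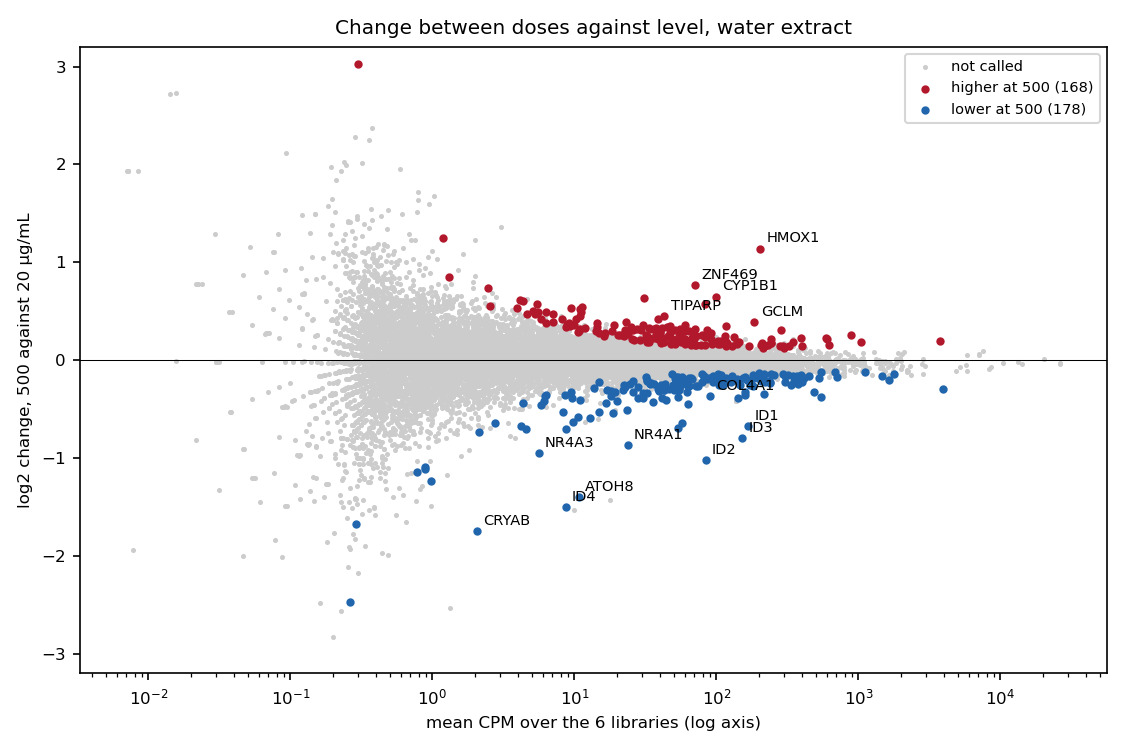
Log2 change between 500 and 20 µg/mL (vertical axis) against the mean level over the 6 libraries in CPM (horizontal log axis), 1 point per tested gene. Red marks the 168 genes higher and blue the 178 lower at 500 µg/mL, grey the rest; 19 genes beyond the vertical limits of 3.2, none of them called, are not drawn, and the named ID genes and HMOX1 stand clear of genes of similar level.

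All 4 ID genes fell. ID2 read 113, 108 and 117 CPM in the libraries at 20 µg/mL and 54.2, 55.7 and 57.1 CPM at 500 µg/mL. ID4 read 13.1, 12.6 and 12.8 CPM at the low dose against 4.03, 4.67 and 4.94 CPM at the high dose. The doses were far apart in every library for both genes, and the log2 changes were -1.02 ± 0.05 (SE) for ID2 and -1.50 ± 0.08 for ID4 (edgeR adjusted p = 6.21e-12 and 2.68e-11). ID3 went from 191, 203 and 186 CPM to 113, 108 and 112 CPM (log2 -0.80 ± 0.04, edgeR adjusted p = 6.21e-12). ID1 went from 211, 213 and 190 CPM to 133, 127 and 126 CPM (log2 -0.67 ± 0.05, edgeR adjusted p = 1.31e-08). No library at 500 µg/mL reached the lowest library at 20 µg/mL for any of the 4. A gap in one direction or the other was common to all 346 genes that passed and to 20.2% of those tested. The vehicle libraries of the batch held 119 ± 2.64 CPM of ID2 and 14.3 ± 0.307 CPM of ID4 (SD, n = 3), above the 20 µg/mL means, while ID1 in vehicle was 176 ± 7.71 CPM, below its 20 µg/mL mean of 204 ± 12.4.

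The promoters of the 4 ID genes are shown because these genes fell together. Each run of 300 bases spans the transcription start, lies mostly before it, and reads 5′ to 3′ along the gene, from RefSeq on GRCh38.p14. Capitals mark, on either strand, the box with the letters CCAAT, the element with the letters TATAA, and the cAMP response element half-site with the letters TGACG. These motifs were chosen after the sequences had been seen.
ID1 promoter (chr20:31605039-31605338, plus strand): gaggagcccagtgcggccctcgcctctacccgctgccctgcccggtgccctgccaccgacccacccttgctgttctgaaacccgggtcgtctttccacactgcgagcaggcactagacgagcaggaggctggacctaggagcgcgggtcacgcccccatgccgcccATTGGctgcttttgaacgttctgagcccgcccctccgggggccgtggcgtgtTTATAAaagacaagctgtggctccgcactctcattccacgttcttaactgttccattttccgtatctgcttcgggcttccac
ID2 promoter (chr2:8681806-8682105, plus strand): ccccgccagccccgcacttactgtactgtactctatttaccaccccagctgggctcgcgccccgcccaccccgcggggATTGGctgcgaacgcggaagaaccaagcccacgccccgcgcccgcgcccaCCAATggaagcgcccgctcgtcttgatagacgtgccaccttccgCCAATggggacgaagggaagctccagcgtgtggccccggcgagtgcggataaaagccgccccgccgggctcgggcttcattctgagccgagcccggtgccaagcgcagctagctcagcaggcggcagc
ID3 promoter (chr1:23559452-23559751, minus strand): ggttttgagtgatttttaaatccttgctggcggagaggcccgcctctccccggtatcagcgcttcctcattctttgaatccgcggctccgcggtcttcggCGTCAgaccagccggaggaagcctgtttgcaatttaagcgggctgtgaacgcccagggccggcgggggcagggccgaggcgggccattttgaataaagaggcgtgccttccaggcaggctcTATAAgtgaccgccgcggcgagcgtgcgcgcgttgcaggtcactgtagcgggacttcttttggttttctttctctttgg
ID4 promoter (chr6:19837120-19837419, plus strand): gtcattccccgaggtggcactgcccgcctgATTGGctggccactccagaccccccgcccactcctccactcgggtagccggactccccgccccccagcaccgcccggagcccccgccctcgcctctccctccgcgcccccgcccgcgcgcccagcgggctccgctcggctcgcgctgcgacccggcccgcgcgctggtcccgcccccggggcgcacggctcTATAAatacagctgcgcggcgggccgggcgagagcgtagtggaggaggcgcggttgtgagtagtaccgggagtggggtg
CCAAT was found once in ID1, 3 times in ID2 and once in ID4. TATAA was found in ID1, ID3 and ID4, where the 2 matches in ID1 overlap on opposite strands. TGACG was found in ID3 alone of the 4. Over all 34796 distinct promoter windows of this length 34.6% hold CCAAT, 20.5% TATAA and 24.5% TGACG. The GC-rich SMAD motif GGCGCC, present in 19.2% of windows, was in none of these 4 and in 4 of the 14 BMP-list promoters with a sequence (BAMBI, BMP4, BMPR2 and GREM1). The SMAD palindrome GTCTAGAC, present in 0.193% of windows, was found in SMAD6. These matches describe letters in a window and no binding was measured.

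The BMP list, which includes ID1 to ID4, moved in part. Of 16 tested members 7 fell and 1 rose, with a median log2 change of -0.42 against 0.00 over all tested genes. The ID genes are among the 7 and enter that median. The rest of the 7 were ATOH8, HEY1 and SMAD6. Among the signal-side genes, the ligand BMP4, the antagonist NOG, the receptor BMPR2 and the decoy receptor BAMBI did not pass the test, with log2 values of 0.31, -0.86, 0.01 and 0.01. The secreted BMP antagonist GREM1 rose from 5.87, 6.14 and 5.77 CPM to 8.28, 8.54 and 7.80 CPM (log2 0.47 ± 0.10, edgeR adjusted p = 0.0114). BMP6, a ligand outside the list, fell from 15.7, 14.7 and 15.6 CPM to 11, 9.05 and 10.5 CPM (log2 -0.59 ± 0.07, edgeR adjusted p = 4.21e-05). The call for GREM1 was lost in 4 of the 6 fits that left out 1 library (highest edgeR adjusted p over all 13 alternatives 0.084), while BMP6 passed in each.

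Among the target genes of the list, ATOH8, a helix-loop-helix factor, fell most after ID4. It went from 16.2, 15 and 15.2 CPM to 6.24, 4.80 and 6.57 CPM (log2 -1.40 ± 0.11, edgeR adjusted p = 9.41e-09). HEY1, a repressor of the HES family, fell from 2.66 ± 0.233 to 1.60 ± 0.113 CPM (SD, n = 3; log2 -0.73, edgeR adjusted p = 0.0128). The inhibitory SMAD6 fell less (log2 -0.19, edgeR adjusted p = 0.0118), whereas its relative SMAD7 did not pass (log2 -0.09). With 1 library left out the call was lost in 3 of 6 fits for SMAD6 and 2 for HEY1. ID4 and ID2 overlap an antisense gene in GENCODE v29, and whether strand entered the counting is not given in the sources used here.

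**Figure D2:**
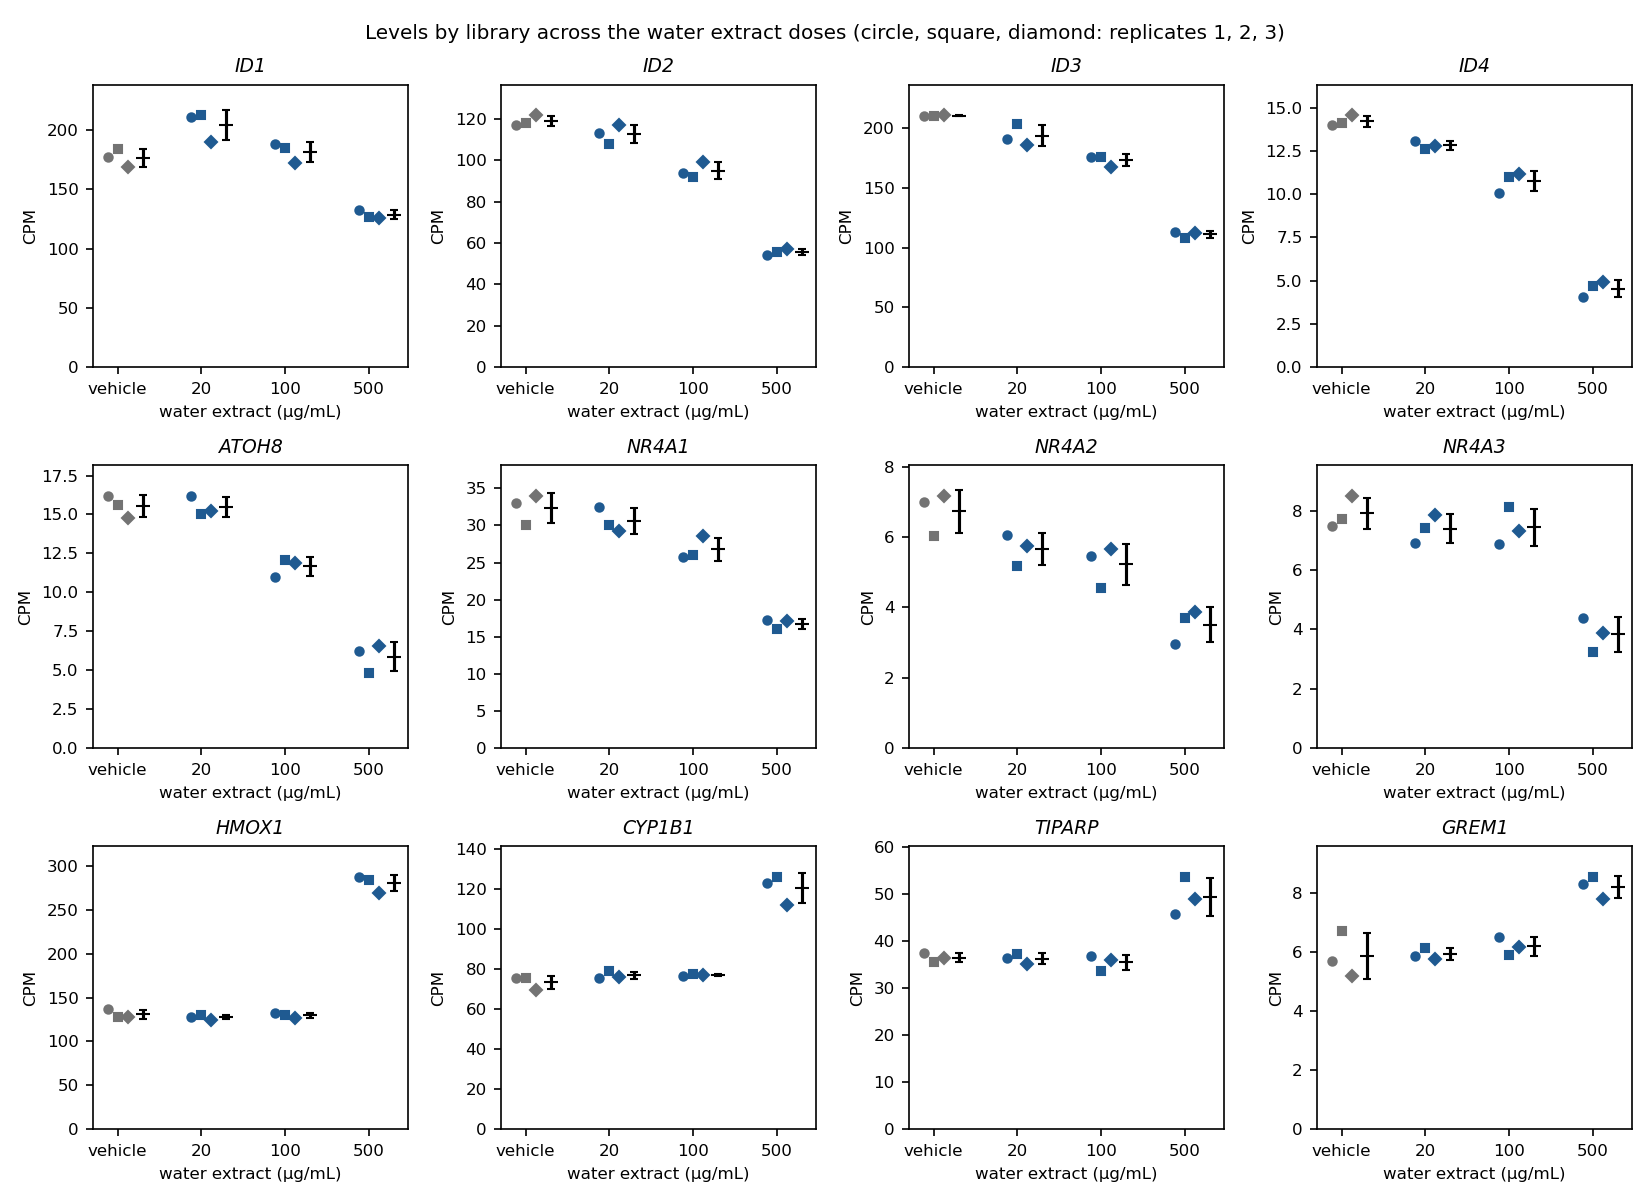
CPM (vertical axes from 0) for 12 genes in vehicle (grey) and in water extract at 20, 100 and 500 µg/mL (blue), 1 symbol per library, with mean and SD of 3 libraries as a black bar. HMOX1 and CYP1B1 lie level up to 100 µg/mL and higher at 500. ID2, ID4 and ATOH8 lie lower at 100 than at 20 µg/mL, a step that did not pass the adjusted test.

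The middle dose shows where along the range these genes moved. Between 500 and 100 µg/mL 195 genes passed (1.16% of those tested), and between 100 and 20 µg/mL 2 genes did (0.0119%), GPX1 and SEPW1, with 535 genes at an unadjusted edgeR p under 0.05, 4 called by DESeq2 and 74 called by edgeR without a filter on low counts. The 195 became 345 without that filter and 97 to 158 with 1 library left out. These comparisons share libraries with the first, so their values are only set side by side. For ID2 the mean went from 113 to 94.9 and then to 55.7 CPM over 20, 100 and 500 µg/mL, for ID4 from 12.8 to 10.8 and 4.55 CPM, and for ATOH8 from 15.5 to 11.7 and 5.87 CPM. In these 3 genes the lower step did not pass the adjusted test (log2 -0.25, -0.25 and -0.40, edgeR adjusted p = 0.223, 1 and 0.561). Of the BMP list, 5 genes (ID1 to ID4 and ATOH8) fell and 1 (GREM1) rose between 100 and 500 µg/mL. None passed between 20 and 100 µg/mL.

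The 3 NR4A receptors, immediate early nuclear receptors induced by many stimuli, fell as well. They were set apart as a group after their values had been seen. NR4A1 read 32.5, 30.1 and 29.2 CPM at 20 µg/mL and 17.2, 16 and 17.1 CPM at 500 µg/mL (log2 -0.87 ± 0.07, edgeR adjusted p = 9.41e-09). NR4A3 read 6.90, 7.43 and 7.86 CPM against 4.38, 3.23 and 3.87 CPM (log2 -0.95 ± 0.11, edgeR adjusted p = 1.90e-05). NR4A2 read 6.06, 5.18 and 5.73 CPM against 2.95, 3.70 and 3.87 CPM (log2 -0.70 ± 0.13, edgeR adjusted p = 0.00411). The libraries of the 2 doses did not overlap in any of the 3 genes. The same held for all 346 genes that passed and for 20.2% of those tested. Of 21 genes tested in the list of immediate early and ERK feedback genes, DUSP1, a phosphatase of MAP kinases, fell (log2 -0.22 ± 0.04, edgeR adjusted p = 0.00380), none rose, 15 had a negative log2 value and the list's median was -0.08. The promoter of NR4A3 is shown for its TGACG half-sites, in capitals, of which it holds 4, whereas NR4A1 holds none. For NR4A2 no promoter sequence was available to search.
NR4A3 promoter (chr9:99821635-99821934, plus strand): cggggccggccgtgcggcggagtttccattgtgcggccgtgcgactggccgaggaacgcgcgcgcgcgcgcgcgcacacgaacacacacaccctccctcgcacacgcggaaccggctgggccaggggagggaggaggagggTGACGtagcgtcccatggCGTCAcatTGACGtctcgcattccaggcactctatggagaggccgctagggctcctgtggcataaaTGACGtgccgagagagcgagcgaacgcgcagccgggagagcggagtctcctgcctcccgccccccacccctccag

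On the rising side, HMOX1 (chr22:35380361-35394214 in GENCODE v29) had the clearest change. It read 128, 130 and 125 CPM at 20 µg/mL, 132, 130 and 127 CPM at 100 µg/mL, and 288, 284 and 270 CPM at 500 µg/mL. The vehicle mean was 131 ± 5.32 CPM (SD, n = 3). The difference between 100 and 20 µg/mL did not pass (log2 0.02), and the high dose stood at 2.20 times the low dose (log2 1.14 ± 0.04, edgeR adjusted p = 3.13e-14).

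Of 27 tested NRF2 targets, HMOX1 included, 6 rose and none fell, and the list's median was 0.05. GCLM, the modifier subunit of the enzyme that starts glutathione synthesis, rose from 161, 169 and 152 CPM to 211, 227 and 192 CPM (log2 0.39 ± 0.07, edgeR adjusted p = 0.00245). Its catalytic partner GCLC rose from 203 ± 4.66 to 221 ± 5.99 CPM (SD, n = 3; edgeR adjusted p = 0.0472). The heme transporter SLC48A1 (log2 0.30), the autophagy receptor SQSTM1 (0.16) and the export pump ABCC2 (0.15) also rose. In the 6 fits that left out 1 library of the comparison the call was lost in 5 for GCLC, 3 for SQSTM1 and 3 for ABCC2. NQO1, TXNRD1 and the cystine transporter SLC7A11, 3 widely used NRF2 targets, did not pass, with log2 values of 0.08, -0.07 and 0.22 (edgeR adjusted p = 0.454, 0.534 and 0.0786). The GCLM promoter is shown with its antioxidant response element core, TGACNNNGC, in capitals on the opposite strand. That core is in 13.3% of windows and in 4 of the 19 NRF2-list promoters with a sequence.
GCLM promoter (chr1:93909381-93909680, minus strand): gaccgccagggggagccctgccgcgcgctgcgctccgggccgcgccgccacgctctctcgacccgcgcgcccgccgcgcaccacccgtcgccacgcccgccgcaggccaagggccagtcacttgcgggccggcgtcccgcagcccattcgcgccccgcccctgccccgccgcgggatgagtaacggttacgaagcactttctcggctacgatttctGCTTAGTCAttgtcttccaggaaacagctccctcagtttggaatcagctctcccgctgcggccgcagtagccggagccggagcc

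Of 14 tested genes of iron handling 5 rose, HMOX1 among them, and none fell, with a median of 0.06. FBXL5, which targets iron regulatory proteins for degradation when iron is plentiful, rose from 34.9, 30.4 and 33.8 CPM to 41.7, 48.3 and 43 CPM (log2 0.42 ± 0.06, edgeR adjusted p = 0.000148). The iron exporter SLC40A1 rose from 29.2, 31.2 and 28.9 CPM to 35.7, 39 and 37.2 CPM (log2 0.33 ± 0.05, edgeR adjusted p = 0.000983). The transferrin receptor TFRC, the route of uptake, rose from 257, 261 and 251 CPM to 318, 339 and 292 CPM (log2 0.31 ± 0.06, edgeR adjusted p = 0.00355). Genes for uptake and for export were therefore both higher. Ferritin heavy chain FTH1 rose by 0.20 and its light chain FTL did not pass (0.06, edgeR adjusted p = 0.615), with FTH1 uncertain because it has many processed pseudogenes and because its call was lost in 6 of 6 fits with 1 library left out. Without replicate 2 at 500 µg/mL TFRC no longer passed (edgeR adjusted p = 0.0552).

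Of 10 tested targets of the aryl hydrocarbon receptor 2 rose and none fell, with a median of 0.10. CYP1B1, which oxidises estrogens and polycyclic compounds, rose from 75.4, 78.9 and 76.1 CPM to 123, 126 and 112 CPM (log2 0.65 ± 0.05, edgeR adjusted p = 9.41e-09). TIPARP, an ADP-ribosyltransferase that restrains the receptor, rose from 36.5, 37.3 and 35.1 CPM to 45.7, 53.7 and 48.9 CPM (log2 0.45 ± 0.05, edgeR adjusted p = 2.52e-05). As with HMOX1, both lay level between 20 and 100 µg/mL, with means of 76.8 and 77.1 CPM for CYP1B1 and 36.3 and 35.5 CPM for TIPARP. CYP1A1, the classical target, was low, at 0.376, 0.383 and 0.521 CPM against 0.694, 0.850 and 1.07 CPM. Its libraries did not overlap, as in 20.2% of all tested genes, and the difference did not pass (log2 1 ± 0.31, edgeR adjusted p = 0.104). CYP1B1 and TIPARP each overlap a gene on the opposite strand.

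Selenoproteins, proteins that carry selenocysteine and depend on selenium supply, made up part of the falling genes. The group was drawn up after the values had been seen. Of 25 genes 22 were tested, of which 5 fell, none rose and 17 did not pass. The median was -0.12, against 0.00 over all tested genes. A negative log2 value was found in 19, which includes small ones that did not pass, such as SELENOI (-0.04) and SELENOS (-0.05). GPX1, a glutathione peroxidase, went from 67.9, 67.4 and 63.8 CPM at 20 µg/mL to 46.2, 46.2 and 43.6 CPM at 100 µg/mL and 39.9, 40.4 and 43 CPM at 500 µg/mL. Most of its fall had taken place by 100 µg/mL (log2 -0.55, edgeR adjusted p = 0.000160), and the whole range gave -0.69 ± 0.06 (edgeR adjusted p = 1.89e-07). SELENOW, listed under its older symbol SEPW1, followed the same course, from 49.6, 47.2 and 44.8 CPM to 37.8, 39 and 36.2 CPM and then 35.7, 34 and 38.1 CPM (log2 -0.33 and -0.39 from 20 µg/mL, edgeR adjusted p = 0.0132 and 5.36e-05). These were the genes that differed between 100 and 20 µg/mL. GPX1 kept that call in the 6 fits that left out 1 library, and SEPW1 lost it in 4 (highest edgeR adjusted p 0.232).

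Of the other 3 selenoprotein genes that fell, none passed between 100 and 20 µg/mL. GPX3, the plasma peroxidase, fell by 0.53 on the log2 scale over the whole range, the deiodinase DIO2, which activates thyroid hormone, by 0.45, and SELENOT, listed as SELT, by 0.32 (edgeR adjusted p = 0.000290, 1.89e-07 and 5.80e-05). Means over the 3 doses were 73.2, 70.2 and 53.6 CPM for DIO2, 17.7, 15.9 and 12.3 CPM for GPX3, and 68.6, 60.1 and 55 CPM for SELT. SELT had a log2 value of -0.19 at the middle dose, against -0.06 for DIO2 and -0.15 for GPX3. GPX4, the peroxidase of membrane lipids, and TXNRD1 did not pass, with log2 values of -0.14 and -0.07. Both GPX1 and SEPW1 were still higher in vehicle, at 75.6 ± 7.30 and 61.8 ± 2.89 CPM (SD, n = 3), than at 20 µg/mL. GPX1 has a pseudogene copy with which reads may be shared, and GENCODE v29 does not class it as protein-coding.

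**Figure D3:**
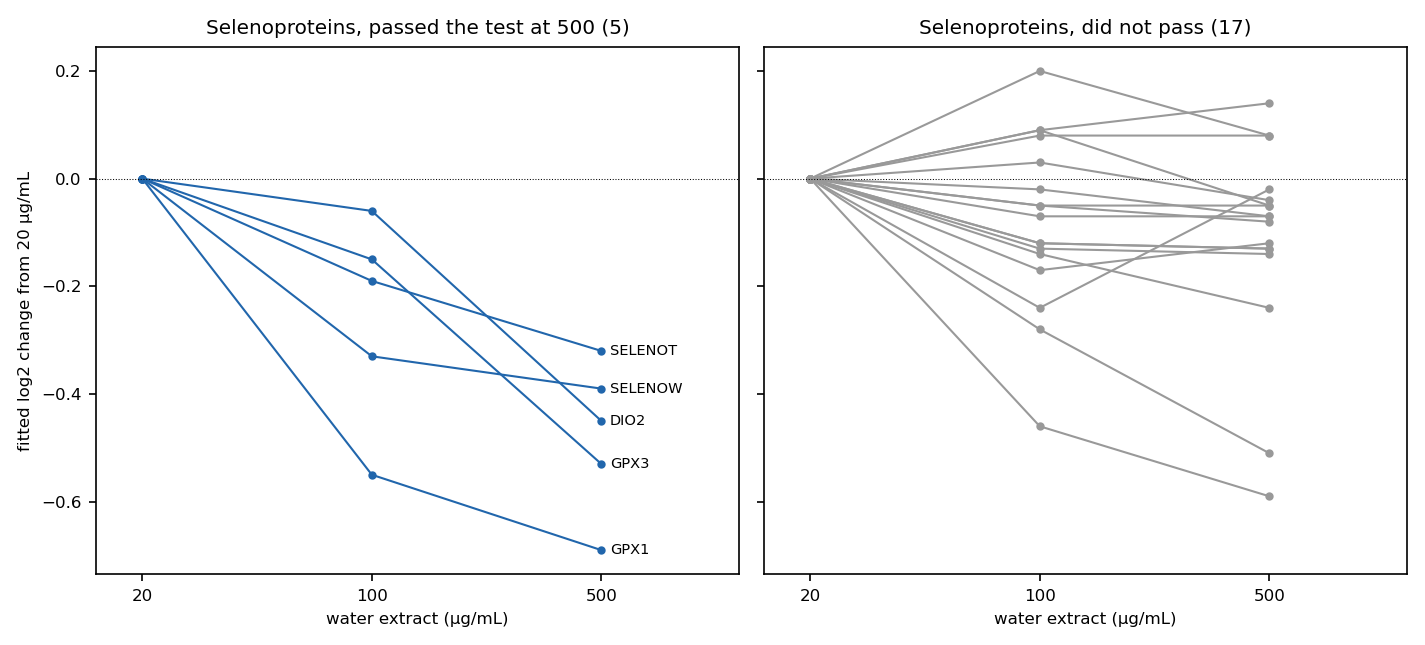
Fitted log2 change from 20 µg/mL (vertical axis) at the 3 doses of water extract for the 5 selenoprotein genes that passed the test (left) and the 17 that did not (right), 1 line per gene. GPX1 and SELENOW reach most of their fall at 100 µg/mL, while DIO2 and GPX3 reach most of theirs at 500 µg/mL.

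Most chaperones did not pass. Of 19 chaperones and folding enzymes of the endoplasmic reticulum 4 rose and none fell (median 0.08). These were the lectin chaperone CALR (558, 547 and 561 against 647, 637 and 660 CPM, log2 0.22 ± 0.04), HSP90B1 (0.19), and the disulfide isomerases PDIA3 (0.19) and PDIA4 (0.14), with edgeR adjusted p from 0.000749 to 0.0237. HSPA5, the main sensor-bound chaperone there, is in this list and did not pass. The vehicle libraries held 628 ± 15 CPM of CALR and 372 ± 7.48 CPM of PDIA3 (SD, n = 3). These lay nearer the 500 µg/mL means (648 and 370) than the 20 µg/mL means (555 and 325). PDIA4 in vehicle, at 301 ± 9.13 CPM, lay nearer its 20 µg/mL mean (310) than its 500 µg/mL mean (342). HSP90B1 stood at 1000 ± 61.3 CPM in vehicle, against 970 and 1110 at the 2 doses. Of 22 cytosolic chaperones 3 fell and none rose (median -0.07). The small heat shock protein CRYAB fell from 2.91, 3.02 and 3.56 CPM to 0.867, 0.722 and 1.27 CPM (log2 -1.75 ± 0.22, edgeR adjusted p = 3.58e-05). FKBP4 (-0.15) and HSP90AB1 (-0.14) fell little. With 1 library left out the call was lost in 6 of 6 fits for HSP90AB1, 4 for PDIA4, 2 for FKBP4, 2 for HSP90B1 and 1 for PDIA3. HSPA1A, the inducible HSP70, stood at 318 ± 2.51 and 320 ± 11.7 CPM (SD, n = 3) and did not pass. CRYAB overlaps HSPB2 on the opposite strand, and HSPA1A and HSP90AB1 have close copies, so these values are uncertain to that extent.

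Metallothioneins, which bind zinc and copper, fell while a zinc importer rose. MT2A fell from 42.7, 39.9 and 45.6 CPM to 35.3, 33.8 and 36.2 CPM (log2 -0.29 ± 0.06, edgeR adjusted p = 0.0163), and MT1X from 7.28, 7.48 and 6.56 CPM to 5.46, 5.56 and 5.50 CPM (log2 -0.36 ± 0.09, edgeR adjusted p = 0.0347). The zinc importer SLC39A10 rose from 100, 101 and 106 CPM to 127, 138 and 125 CPM (log2 0.35 ± 0.04, edgeR adjusted p = 5.80e-05). These were 3 of 6 tested members of the list. Metallothionein genes are near-identical copies, so their split of reads is uncertain. MT1X passed in 5 of 13 alternative analyses and MT2A in 11 of 14. The MT2A promoter is shown because it is dense in metal response element cores, TGCGCNC and TGCACNC, in capitals, with 8 matches. Single promoter windows hold these cores in 19.9 and 12.1% of cases.
MT2A promoter (chr16:56608334-56608633, plus strand): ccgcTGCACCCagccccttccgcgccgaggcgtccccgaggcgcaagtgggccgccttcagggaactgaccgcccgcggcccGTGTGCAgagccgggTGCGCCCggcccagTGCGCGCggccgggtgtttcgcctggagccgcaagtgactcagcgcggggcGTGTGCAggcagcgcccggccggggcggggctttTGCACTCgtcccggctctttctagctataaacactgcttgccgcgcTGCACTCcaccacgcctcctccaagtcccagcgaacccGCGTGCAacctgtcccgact

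Genes of the extracellular matrix and the TGF-beta response fell in part. Of 25 tested 4 fell and none rose (median -0.04). COL4A1, a chain of basement membrane collagen, read 101, 101 and 103 CPM against 78.6, 78 and 79.3 CPM (log2 -0.37 ± 0.03, edgeR adjusted p = 1.20e-07). Its partner chain COL4A2 (-0.22), PMEPA1, a feedback inhibitor of TGF-beta signalling (-0.24), and the matrix protein TGFBI (-0.20) fell as well, TGFBI losing the call in 2 of 6 fits with 1 library left out. Of 15 targets of the YAP and TEAD factors 4 fell and none rose: ANKRD1 (-0.58), IGFBP3 (-0.39), DLC1 (-0.25) and CRIM1 (-0.12). The median of the list was -0.01, and the call for CRIM1 was lost in 6 of 6 fits with 1 library left out.

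Metabolic, cell cycle and inflammatory lists moved little. Of 21 glycolysis genes 4 fell and none rose (median -0.12): the glucose transporter SLC2A3 (-0.30), HK1 (-0.26), LDHA (-0.16) and ALDOA (-0.12). With 1 library left out the call was lost in 6 of 6 fits for ALDOA, 2 for HK1 and 2 for LDHA. Among 40 mitotic genes AURKA, the kinase of spindle poles, was the 1 that fell (147, 144 and 153 against 129, 129 and 132 CPM, log2 -0.19 ± 0.04, edgeR adjusted p = 0.00885). Without replicate 3 at 20 µg/mL AURKA no longer passed. The members of the chromosomal passenger complex, which includes Aurora B (AURKB), did not pass. AURKB stood at 85.9 ± 1.87 and 82.3 ± 1.76 CPM, INCENP at 98.6 ± 2.29 and 95.7 ± 3.60, BIRC5 at 147 ± 5.10 and 141 ± 2.48, and CDCA8 at 46.8 ± 2.45 and 44.8 ± 1.31 CPM (SD, n = 3; edgeR adjusted p = 0.521, 0.783, 0.589 and 0.599). The log2 values of these 4 transcripts lay between -0.07 and -0.04.

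Of 17 NF-kB targets and chemokines 2 rose and none fell (median 0.13), the caspase-binding BIRC3 (24.7, 25.1 and 24.1 against 31.1, 31.3 and 29.5 CPM, log2 0.32) and the neutrophil chemokine CXCL2 (log2 0.74, at 1.64 to 2.11 against 2.51 to 3.62 CPM), whose call was lost in 4 of 6 fits with 1 library left out. Of the acute phase genes the fibrinogen chain FGB rose (log2 0.25, edgeR adjusted p = 0.00221). The ADP-ribosyltransferases PARP14 and PARP9, the PARP9 partner DTX3L and the transcription factor STAT4, picked out after their values had been seen, rose by 0.32, 0.34, 0.34 and 0.38 on the log2 scale, and with 1 library left out PARP9 and STAT4 each lost the call in 2 of 6 fits. PARP9 and DTX3L overlap on opposite strands, as do COL4A1 and COL4A2.

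Other lists gave few calls or none. In each of the lists for Wnt feedback (CCND1, -0.20), Kruppel-like factors (KLF4, -0.37), hypoxia targets outside glycolysis (ANGPTL4, -0.27), ribosome biogenesis (NOP16, -0.20), fatty acid synthesis (ACLY, -0.12) and proteasome subunits (PSMA6, -0.18) 1 gene fell and none rose. In the autophagy and lysosome list SQSTM1 alone rose. Of the p53 targets SPATA18 rose (0.60) and CDKN1A, a kinase inhibitor, fell (-0.22), and of the replication genes GINS4 rose (0.17) and RRM2 fell (-0.16). Most of these calls were unstable: with 1 library left out KLF4, ACLY, PSMA6 and RRM2 lost theirs in 6 of 6 fits, NOP16, CDKN1A and GINS4 in 5, SPATA18 in 4 and SQSTM1 in 3, while CCND1 and ANGPTL4 kept theirs. None passed in the lists for ATF4 and amino acid response, cholesterol synthesis, mitochondrially encoded genes, CLK and SR splicing regulators and cytosolic ribosomal proteins. All 31 proteasome subunits had a negative log2 value, between -0.18 and -0.04, of which 1 passed. Such a lean was not particular to the proteasome. Values were negative in 23 of 24 ribosome biogenesis genes, 39 of 45 ribosomal proteins, 20 of 22 cytosolic chaperones and 18 of 21 glycolysis genes. In the endoplasmic reticulum list 16 of 19 were positive. The share of negative values over all tested genes was not counted.

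**Figure D4:**
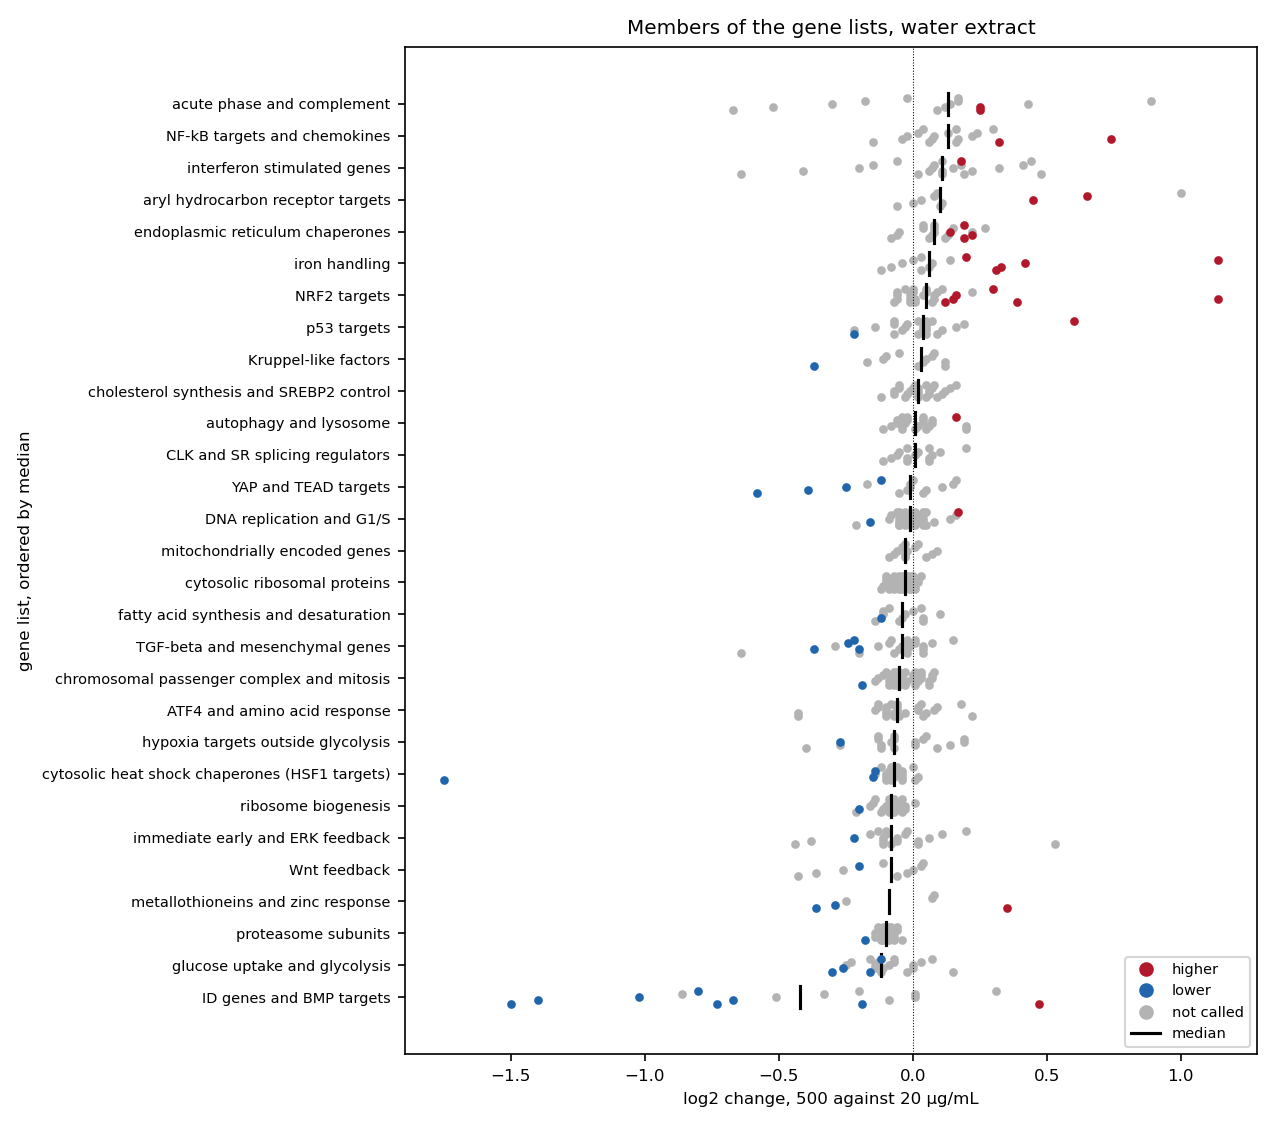
Log2 change between 500 and 20 µg/mL (horizontal axis) for the tested members of 29 gene lists, 1 row per list, ordered by median (black bar), with genes that rose in red, fell in blue and others in grey. The list of ID genes and BMP targets, in which ID1 to ID4 are counted, has the lowest median, -0.42, and all other medians lie between -0.12 and 0.13.

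Further genes were named by the size of their change, among protein-coding genes that passed, reached 5 CPM and did not overlap between doses. Those that rose were ZNF469 (52.1, 52.2 and 52.1 against 89.4, 86.7 and 91 CPM, log2 0.77), RARRES1 (0.61), SPATA18 (0.60), SPACA6 (0.54), IGDCC4 (0.52), ZNF230 (0.50), GFRA1 (0.49), SALL4 (0.49) and NAV3 (0.47). With 1 library left out the call was lost in 5 of 6 fits for NAV3, 4 each for SPATA18, ZNF230, GFRA1 and SALL4, and 1 for RARRES1, while ZNF469, SPACA6 and IGDCC4 kept theirs. ZNF469 encodes a zinc finger protein tied to corneal collagen, RARRES1 a retinoid-responsive gene, GFRA1 a co-receptor for the growth factor GDNF, and SALL4 a factor of embryonic stem cells. Except for ZNF469, at 52.2 to 89 CPM, these genes were low, with means under 15 CPM at both doses. Those that fell were S100P (-0.70), a calcium-binding protein of many carcinomas, and SDS (-0.54), the serine dehydratase. SDS overlaps SDSL on the opposite strand, which was also called lower. Larger fitted changes at levels under 5 CPM, as in MRO, LCE3D and the readthrough gene PRH1-PRR4, were outside the rule for naming genes.

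Whether the ethanol extract gave the same dose effect was asked in the same fit. Between its doses of 500 and 20 µg/mL 11377 genes passed (67.5% of those tested), 5729 higher (34%) and 5648 lower (33.5%). The dose effect itself differed between the extracts in 9278 genes (55%). Of the 346 genes called with the water extract, 272 (78.6%) were among these. Of the 168 genes that rose with the water extract, 91 (54.2%) were higher and 62 (36.9%) lower with the ethanol extract. Of the 178 that fell, 123 (69.1%) were lower and 44 (24.7%) higher. The 214 genes called in the same direction with both are 61.8% of the water extract's calls and 1.88% of the ethanol extract's.

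No difference in the dose effect on the ID genes was detected between the extracts. With ethanol extract ID1, ID2, ID3 and ID4 changed by -0.77, -0.96, -0.69 and -1.46. The differences of the dose effects, water minus ethanol, were 0.10 (95% interval -0.05 to 0.25), -0.06 (-0.21 to 0.09), -0.11 (-0.23 to 0.00) and -0.04 (-0.28 to 0.20), none of which passed edgeR's test (adjusted p = 0.269, 0.524, 0.0907 and 0.818). The intervals exclude a difference of more than 0.28 on the log2 scale in either direction, but a missed threshold does not show equal effects. GPX1 and SEPW1 gave differences of 0.03 and -0.02 and likewise did not pass (edgeR adjusted p = 0.816 and 0.833).

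HMOX1 differed in direction between the extracts. With ethanol extract it went from 120 ± 5.12 CPM at 20 µg/mL to 59.4 ± 3.07 CPM at 500 µg/mL (SD, n = 3), a log2 change of -1.02 against 1.14 with water extract. The difference of 2.15 ± 0.06 passed (edgeR adjusted p = 8.60e-18). ATOH8, which fell with the ID genes under water extract, stood at 14.5 and 15.8 CPM at the low and high dose of ethanol extract (difference -1.53, edgeR adjusted p = 2.17e-09). At 100 µg/mL of ethanol extract its mean was lower, at 11.5 CPM. CYP1B1 and TIPARP rose more with ethanol extract, by 1.45 and 1.67 (differences -0.81 and -1.23, edgeR adjusted p = 9.15e-10 and 2.43e-12). The genes of the passenger complex fell with ethanol extract, AURKB from 82.4 to 49.2 CPM, and their dose effect differed between extracts (0.68 for AURKB, edgeR adjusted p = 4.02e-10).

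**Figure D5:**
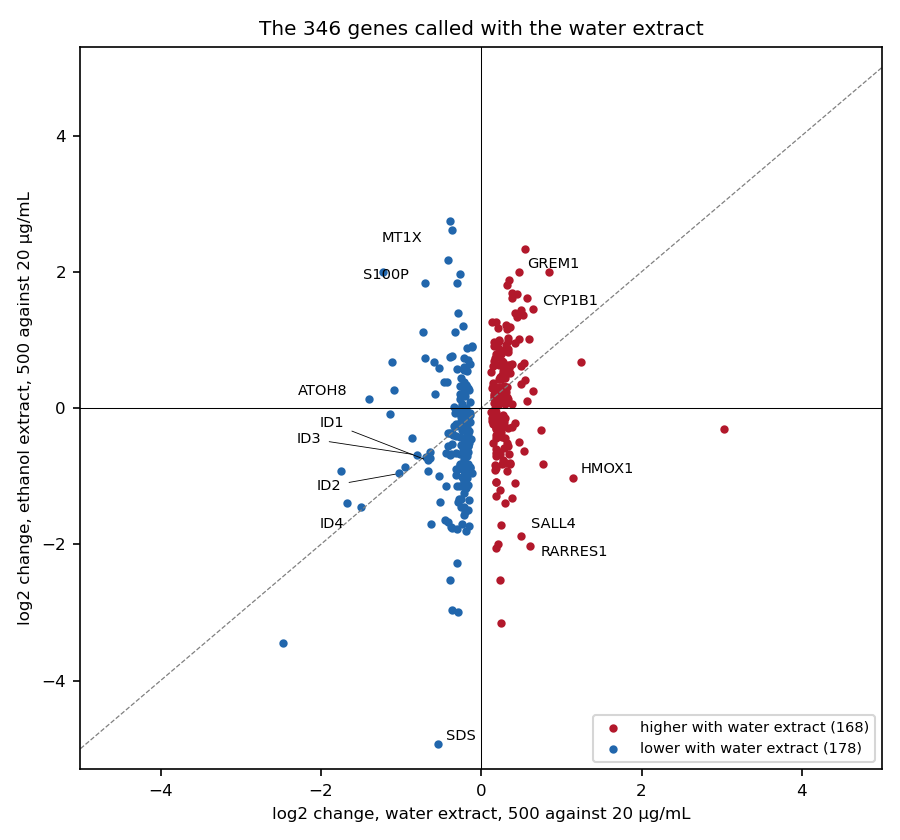
Log2 change between 500 and 20 µg/mL with water extract (horizontal axis) and with ethanol extract (vertical axis) for the 346 genes called with water extract, red for those that rose and blue for those that fell with it. ID1 to ID4 lie near the dashed line of equal change, HMOX1, SALL4 and RARRES1 lie in the quadrant of opposite directions, and most genes have a larger change with ethanol extract.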

How the data were processed

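RNA from A549 cells was sequenced after a directional MGIEasy library preparation, per the labels. The authors deposited RSEM (1.3.3) expected counts per gene for all 96 libraries. FastQC, Trim Galore, STAR and the GRCh38 build are named in the submitters' processing notes, and no source used here gives the annotation release or a strand setting. Of the values in the first batch 89.9% were whole numbers. Expected counts were rounded, and the 21 libraries of that batch were fitted together with edgeR 4.0.16 in R 4.3.3: TMM factors, filterByExpr, a quasi-likelihood fit on the 7 groups without covariates, and Benjamini-Hochberg adjustment over 16854 genes. Depth was 17.9 to 28.1 × 1e6 counts, with 14 residual degrees of freedom and a common coefficient of biological variation of 0.0444. CPM were computed with the TMM library sizes and are not comparable between genes of different length. Coordinates are from GENCODE v29, which holds 94% of the gene identifiers.

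Named genes were the 12 largest changes in each direction among protein-coding genes that passed, reached 5 CPM on average at one of the doses and did not overlap between doses, up to 4 members per list by p, and 3 per direction by p for the difference between extracts. Aurora B complex genes were named for the title, and other list members after their values had been seen. The comparison, the lists and the promoter motifs were chosen with earlier results of these data known. Identical values occurred in 0 of 21 replicate pairs, and counts differed by more than sampling noise (chi-square per degree of freedom 1.93 to 20.3). Replicate numbers come from the labels. Same-numbered libraries at 500 and 20 µg/mL deviated together (correlations 0.196, 0.169 and 0.382 over 11023 genes), so the numbers pair these libraries by that check. The p-values given are nonetheless from the fit without that pairing. With a replicate block 507 genes passed, all 346 and 161 others, so a gene said not to pass may pass with the block. Alternatives were RLE factors, other filters, leaving out mitochondrial genes or single libraries, the replicate block, a fit to the groups compared, and DESeq2 1.42.0. The fitting script was tested on simulated data. Some genes that passed are not reported here.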

Additional observations from a re-analysis of the deposited data

Results flagged for a closer look

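The dose effect of the water extract differed from that of the ethanol extract, by edgeR's test of the difference itself, in 9278 genes. The values below are differences of log2 changes, water minus ethanol. Among genes that rose with the water extract the difference was 2.15 for HMOX1, 1.59 for ZNF469, 2.63 for RARRES1 and 2.37 for SALL4, which were lower at 500 than at 20 µg/mL of the ethanol extract. It was -0.81 for CYP1B1, -0.41 for SPATA18, -0.85 for IGDCC4, -1.52 for GREM1 and -0.54 for NAV3, which rose more with the ethanol extract.

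Among genes that fell with the water extract the difference was -1.53 for ATOH8, -0.43 for NR4A1, -1.43 for NR4A2, -1.26 for BMP6, -0.79 for ANKRD1, -2.53 for S100P and -2.25 for ANGPTL4. For SDS it was 4.39, since SDS fell far more with the ethanol extract. Genes named for a small p of the difference were DLGAP5 (4.20) and HMMR (2.69), both of the mitotic spindle, HSPA1A (2.66), NDRG1 (-3.38), a hypoxia-responsive gene, and PODXL (-2.59). Groups of 3 libraries were not searched for single outlying libraries.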

How the results depend on the processing

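The 346 genes of the comparison of 500 with 20 µg/mL became 341 with RLE factors, 350 without mitochondrial genes, 362 with a minimum of 1 CPM in 3 libraries, 505 without a filter, 336 in a fit to the groups compared and 388 with DESeq2. With a replicate block 507 passed and all 346 were among them. DESeq2 shared 261 and the unfiltered test 288 of the 346. Leaving out 1 library gave 158 to 255 genes, and leaving out replicate 3 of every group, chosen after seeing the data, gave 128. Size minimums left 33 genes at 1.5-fold and 13 at 2-fold. The 195 genes between 500 and 100 µg/mL became 345 without a filter, 309 with a replicate block, 97 to 158 without 1 library and 81 without replicate 3. Same-numbered libraries of these doses correlated at 0.0611, 0.155 and 0.248. The highest correlations with another number were 0.0503, 0.0352 and -0.078, so replicate 1 was barely set apart. The 2 genes between 100 and 20 µg/mL became 74 without a filter, 4 with DESeq2, 3 with the block, 1 to 2 without 1 library and 1 without replicate 3. The 9278 genes whose dose effect differed between extracts ranged from 8066 to 9580, the latter with the block. For replicate 2 the ethanol extract libraries at 500 and 20 µg/mL did not deviate together (correlation -0.154, against 0.26 with another number). The share of higher genes among the calls, 48.6%, was 42% with DESeq2 and 38% without replicate 2 at 500 µg/mL. No result changed sign. Of 70 named genes that passed, 33 passed in every alternative, among them ID1 to ID4, ATOH8, HMOX1, CYP1B1, TIPARP and the NR4A genes, and 37 missed in at least 1. Over single genes, 460 of 630 values with 1 library left out, 57 of 99 without replicate 3 of every group and 644 of 666 from the other settings kept their side of the threshold. Over the counts per list and direction, 92 of 384, 23 of 64 and 41 of 448 moved by more than 1.5 times. Depth limits the genes under 5 CPM, and 3 libraries a group limit all of them.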
